A study of Mus musculus with 2 samples.

Results

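The cells described here were the dividing fraction of CD8 T cells sorted from the mouse mammary fat pad. They were chosen by their RNA: a T cell was taken as cycling when at least 4 of 10 cell cycle genes (Mki67, Top2a, Birc5, Ube2c, Pclaf, Rrm2, Tk1, Cdk1, Ccna2 and Hist1h1b) each had at least 1 UMI, a unique molecular identifier that stands for 1 captured RNA molecule. The rule found 188 cycling cells among 5488 T cells, 57 of 2991 in a library from parous mice and 131 of 2497 in a library from virgin mice. Both libraries held live cells sorted as CD45+ TCRB+ CD8a+ from the 4th mammary fat pad of untreated C57BL/6 mice, 1 group multiparous (having borne several litters) and 1 virgin, and the labels state no age. A library pooled 5 or more mice and each group had 1, which leaves the comparison of groups without replicates and without a test. Intervals are exact 95% intervals and cover counting error only, not the spread between mice or preparations. Those of a ratio of summed UMIs treat each UMI as independent, so they also leave out the spread between the cells of a group.

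Cell division runs in phases. In S phase the chromosomes are copied, which needs licensed replication origins, DNA polymerases, deoxynucleotides and a fresh supply of histones, and in mitosis the copies are condensed, attached to a spindle and pulled apart. Cyclins and their kinases drive each step, E2F transcription factors turn on the S phase genes, and the DREAM and B-MYB complexes, which read a promoter element called CHR, time the mitotic genes. A resting memory CD8 T cell in a tissue mostly lies outside this cycle and is held there by inhibitors such as p27 (Cdkn1b), and antigen or cytokines such as IL-15 can bring it back in.

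The genes of the rule span that sequence, from S phase to mitosis. RefSeq promoter windows on GRCm38.p6, from 250 bases before to 50 bases after a gene's start, were available for 9 of the 10 rule genes, and Ccna2 was not matched. Motifs of 3 kinds were searched on both strands: CHR (TTTGAA or TTCGAA), the CCAAT box (CCAAT), which often stands beside CHR, and 4 E2F sites (TTTGGCGC, TTTCCCGC, TTTCGCGC and TTTGCCGC). Top2a (topoisomerase II alpha, which untangles chromosomes), Mki67 (Ki-67, which coats mitotic chromosomes) and Cdk1 (the kinase that starts mitosis) are shown because their windows hold several CHR and CCAAT letters close together. Capitals mark the motifs, with ATTGG and TTCAAA the letters of CCAAT and CHR read on the other strand, where CCAAT and ATTGG may overlap by 2 bases. Each stretch reads 5′ to 3′ along the gene's strand, and all 3 genes lie on the minus strand. The stretches run from 230 to 1 bases before the start of Top2a (chr11:99024190-99024419), from 200 to 60 before that of Mki67 (chr7:135716439-135716579) and from 170 to 30 before that of Cdk1 (chr10:69352942-69353082).
Top2a: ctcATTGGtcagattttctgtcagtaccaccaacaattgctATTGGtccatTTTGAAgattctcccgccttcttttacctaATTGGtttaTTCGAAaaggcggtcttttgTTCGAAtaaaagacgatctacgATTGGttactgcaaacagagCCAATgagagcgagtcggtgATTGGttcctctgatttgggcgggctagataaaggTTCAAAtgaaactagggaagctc
Mki67: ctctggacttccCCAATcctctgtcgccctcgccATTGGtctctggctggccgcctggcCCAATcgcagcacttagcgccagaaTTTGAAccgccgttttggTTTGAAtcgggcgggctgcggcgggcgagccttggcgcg
Cdk1: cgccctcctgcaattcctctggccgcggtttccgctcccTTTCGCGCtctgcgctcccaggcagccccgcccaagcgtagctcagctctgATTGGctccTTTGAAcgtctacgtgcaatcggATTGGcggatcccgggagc
Cdk1 was the only one of these 3 with an E2F match, at the capitals TTTCGCGC. CHR letters were found in 5 of the 9 rule gene windows and CCAAT in 7. Over the mitosis lists used below, of which 61 of 71 genes matched, 69.1% of 68 windows held CHR and 55.9% held CHR with CCAAT, against 19.2% and 7.52% of all 32851 windows. Over the replication lists, with 58 of 70 genes matched, 26.1% of 69 windows held an E2F match and 20.3% held CHR, against 2.26% of all windows for E2F. A match is a description of letters and not a measured binding site.

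Cycling cells were a smaller share of the parous than of the virgin T cells. The share was 1.91% (1.45 to 2.46) in the parous library and 5.25% (4.4 to 6.19) in the virgin library, a ratio of 2.75 (2.0 to 3.83). These values use the genes of the rule and are a description. The libraries differed in depth, with medians of 4087 UMIs per cell in the other parous T cells and 6864.5 in the other virgin T cells, and a deeper cell passes the rule more easily. With every cell thinned at random to 1400 UMIs, and shallower cells left out, the shares were 0.975% (28 of 2872 cells) and 2.58% (64 of 2485 cells). Over 20 such random draws the virgin share was 2.23 to 3.52 times the parous share at 1400 UMIs, and 1.78 to 2.32 times at 3000 UMIs. The lower parous share was therefore seen at every depth tried, and its size depended on the depth.

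The rule separated few cells at its threshold. In the parous library 8 cells had 3 of the 10 genes and 8 had 4, and in the virgin library 22 had 3 and 11 had 4. The median number of rule gene UMIs was 4.5 and 6 in the cells with 3 genes and 7.5 and 7 in the cells with 4. All 10 genes were found in 11 parous cells, with a median of 56 rule gene UMIs, and in 53 virgin cells, with a median of 134. Another 4 of 1936 barcodes left out of the parous library and 1 of 29 left out of the virgin library also carried at least 4 of the genes.

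**Figure D1:**
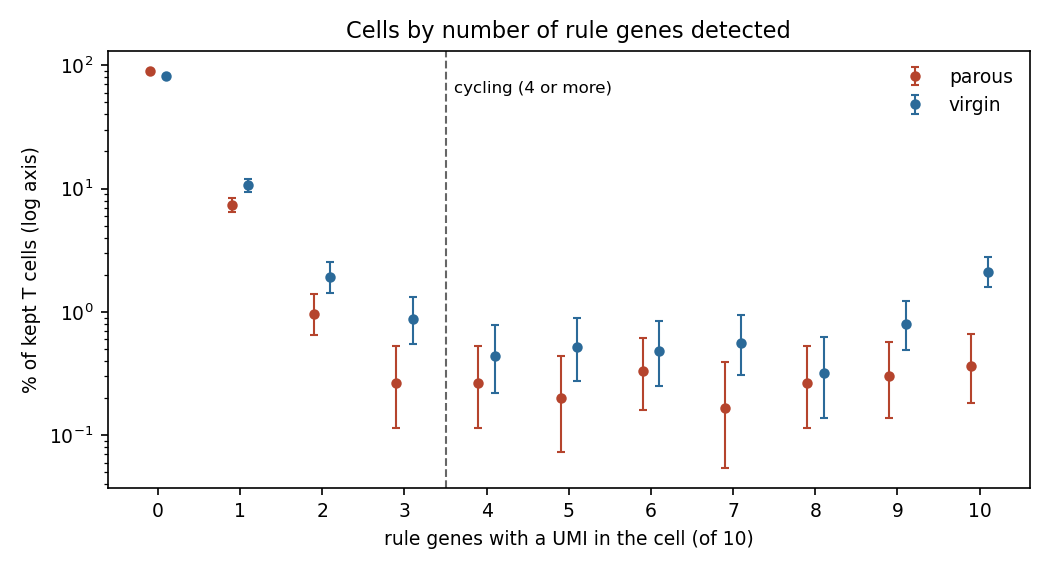
Share of kept T cells (y axis, percent on a log scale) by the number of the 10 rule genes found in the cell (x axis), for the parous and the virgin library, with exact 95% binomial intervals. Cells right of the dashed line are the cycling cells, 57 parous and 131 virgin; the largest group of virgin ones, 53 cells, holds all 10 genes.

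Cycling cells had high UMI and gene counts, and the rule itself favours deeper cells. Their median was 8369 UMIs and 2609 genes in the parous library and 18237 UMIs and 4138 genes in the virgin library, against 1523 and 2087 genes in the other T cells. Mitochondrial UMIs were a median 0.729% and 0.886% of a cycling cell. The libraries shared 18 barcodes, of which 14 were kept and 0 were cycling. UMIs of 2 different Trbv genes, the variable segments of the T cell receptor beta chain, were found in 21.1% of parous and 32.8% of virgin cycling cells, against 10.6% and 21.6% of the other T cells. At 3000 UMIs in every cell these shares were 8.93% and 9.23%, against 6.82% and 8.53%, and doublets were not removed.

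The genes of the rule are high in these cells because they chose them, so their values describe the cells and do not check the label. Mki67 (chr7:135689784-135716361, minus strand) had a UMI in 84.2% of parous and 91.6% of virgin cycling cells, against 1.57% and 2.79% of the others. Pclaf, a clamp-associated factor of DNA replication, was found in all 57 parous cycling cells and in 121 of 131 virgin ones, at 783 and 690 CPM (UMIs per 1000000 UMIs of the group). The level of 9 of the 10 rule genes differed by less than 1.5-fold between the libraries' cycling cells. Hist1h1b, a linker histone made in S phase, was the exception, at 377 CPM (parous) and 935 CPM (virgin). The label was then set beside markers other than the 10 rule genes. Among them Cd3d, Cd3e and Cd3g were part of the filter that kept T cells, so their values do not check the label. Among the 5 CD8 T cell markers, the coreceptor chains Cd8a (679 and 674 CPM) and Cd8b1 (1092 and 1159 CPM) stood at similar levels in both libraries. The summed list, which includes the Cd3 genes of the filter, reached 4582 and 4275 CPM against 4665 and 4553 in the other T cells. Cd4, the coreceptor of helper T cells, had a UMI in 1 of 57 parous cycling cells (1.75%) and in 0 of 131 virgin ones. Thinned to 1400 UMIs, 0 of 57 and 0 of 130 had one, which allows up to 6.27% and 2.80% of cells with a UMI at that depth. That bound does not limit the share of cells that express Cd4. The summed myeloid markers were at 204 and 159 CPM in cycling cells, of which 152 and 119 CPM were Cst3 (cystatin C), and at 189 and 110 CPM in the others. The CD4 T cell list was at 152 and 296 CPM, of which Ctla4 gave 82.7 and 219, against 170 and 238, and the gamma delta list at 17.3 and 10.2, against 30.3 and 11.1. Summed markers of B cells, epithelium, stroma and red cells each stayed at or under 11.5 CPM in cycling cells of either library. Of the 5 NK or innate-like markers (Ncr1, Klrb1c, Tyrobp, Fcer1g and Klra7), the sum was 196 CPM in parous and 21.2 CPM in virgin cycling cells, against 742 and 70.6 CPM in the other T cells.

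Set against the other T cells of the same library, cycling cells held the whole division programme, from origin licensing to cytokinesis. Genes were compared by UMIs summed over cells, as CPM, and a gene was counted as higher or lower when it was at least 1.5-fold apart in the same direction in both libraries. Of 10817 genes with at least 20 summed UMIs in each library, rule genes left out, 1602 (14.8%) were higher and 957 (8.85%) lower in cycling cells. Over genes with at least 10 UMIs in both groups the median log2 ratio was 0.22 (parous) and 0.18 (virgin), and setting that median to 0 turned the counts to 1098 higher and 1479 lower. Because the rule chose cells by such genes, the values for the division lists are a description. The share of all genes called is given as the background.

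For copying DNA, 31 of 31 DNA synthesis genes and 17 of 18 licensing genes were higher, with 0 lower. Median log2 ratios were 2.53 and 2.28 (parous, virgin) for synthesis and 2.90 and 2.46 for licensing. Pcna, the sliding clamp of the DNA polymerases, stood at 387 and 307 CPM in cycling cells against 105 and 74.6 CPM in the others. Mcm5, a subunit of the replicative helicase, stood at 223 and 219 CPM against 19.2 and 21.4. Cdc6, which loads that helicase, had log2 ratios of 5.81 and 5.23, and Tyms, which makes thymidylate, 4.36 and 4.18. Of 20 nucleotide supply genes 15 were higher. Esco2, which locks sister chromatids together during replication, was among the genes furthest apart, at 102 and 77.3 CPM against 0.234 and 0.0579 CPM. Replication-linked histone genes were higher in 24 of 26 measured cases, with median log2 ratios of 3.55 and 3.88. Their mRNAs mostly lack a poly(A) tail, so methods that prime on poly(A) capture them only in part.

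For mitosis, all 45 measured spindle and kinetochore genes, all 19 condensation and cohesion genes and 18 of 19 cytokinesis genes were higher in both libraries. The spindle list had median log2 ratios of 5.05 and 5.37, and of 3.74 and 3.58 with every cell thinned to 3000 UMIs. The cytokinesis list was at 4.78 and 4.79, and at 3.91 and 3.39 when thinned. Cenpf, a kinetochore protein, stood at 113 and 116 CPM against 0.779 and 0.405 CPM. Nusap1, which bundles spindle microtubules, stood at 146 and 143 CPM against 1.09 and 0.521. Aurkb, the Aurora kinase that corrects chromosome attachment, stood at 90.4 and 126 CPM against 0.623 and 0.752. Stmn1, the microtubule-destabilising protein stathmin, stood at 1369 and 986 CPM against 18.9 and 23.8. Of 17 cyclin and kinase genes 14 were higher, and Ccnb2, a mitotic cyclin, had log2 ratios of 7.20 and 6.09. Of 19 E2F, DREAM and B-MYB genes 12 were higher and 1 lower. The higher ones held both activators and repressors of the programme, with E2f8, an atypical repressor, at 7.59 and 7.23 and E2f1, an activator, at 4.02 and 3.68.

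**Figure D2:**
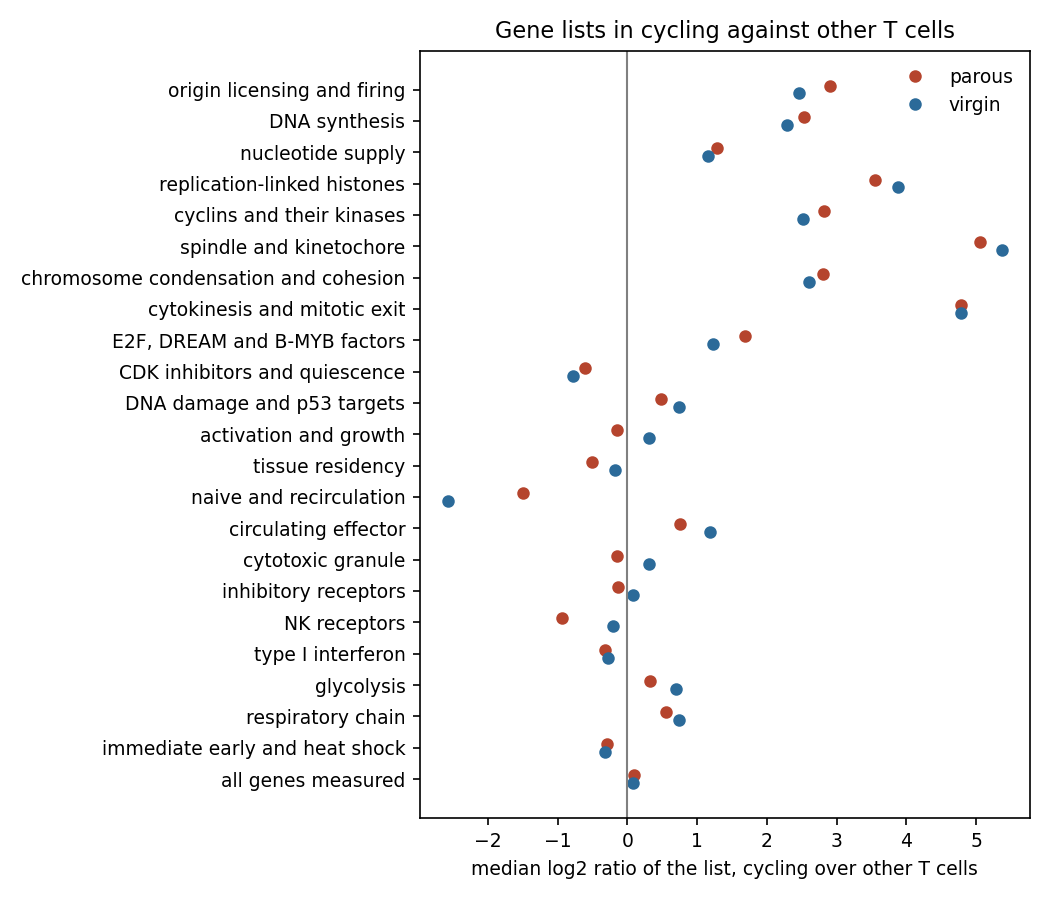
Median log2 ratio of each gene list in cycling over other T cells (x axis), 1 point for the parous and 1 for the virgin library, above the median of all genes measured. The 9 lists of the division programme and its factors lie above 1 in both libraries, and the naive and recirculation list lies below -1.

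The brakes on division did not move as 1 group. Of 22 CDK inhibitor and quiescence genes 4 were higher and 10 lower in cycling cells, with medians of -0.61 and -0.77. The parous median was -0.44 when the member with 0 UMIs there was placed at the bound that 3 counts allow. Cdkn1b (p27), which holds resting T cells out of the cycle, was lower by the log2 ratios -1.20 and -1.09. Btg1, an anti-proliferative factor, was lower at -1.42 and -1.89, and Foxp1, which keeps naive T cells quiet, at -1.26 and -1.86. The 4 that were higher were all inhibitors of cyclin-dependent kinases: Cdkn1a (p21) at 1.79 and 2.33, Cdkn2a at 4.05 and 3.47, Cdkn2c (p18) at 2.07 and 2.34 and Cdkn2d (p19) at 1.19 and 1.15. Cdkn2a also encodes Arf, and the counts do not separate its transcripts.

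Naive and recirculation genes were lower in cycling cells. Summed, they stood at 1414 CPM in parous and 1109 CPM in virgin cycling cells, against 3154 and 5651 CPM in the others. Of 20 naive and recirculation genes 17 were lower in both libraries and 0 higher, with medians of -1.49 (-1.39 with members at 0 at their bound) and -2.57. Ccr7, the receptor that brings T cells into lymph nodes, stood at 21.2 and 68.6 CPM against 338 and 573. Il7r, the receptor for the survival cytokine IL-7, and Satb1, a chromatin organiser of young T cells, had log2 ratios of -2.79 and -2.58, and of -3.09 and -2.57. Bcl2, which protects resting lymphocytes from death, was lower at -1.87 and -1.85.

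Genes of effector cells that circulate went the other way. Of 20 such genes 11 were higher and 0 lower, with medians of 0.75 and 1.18. Klrg1, an inhibitory receptor of terminal effector cells, stood at 108 and 362 CPM against 21.4 and 69.5, and Lgals1, the lectin galectin-1, had ratios of 1.81 and 1.77. S100a4 and Crip1, both abundant in effector and memory T cells, had ratios of 1.56 and 1.62, and of 1.42 and 1.53. Of 54 respiratory chain genes 22 were higher and 0 lower, with medians of 0.55 and 0.74, or 0.33 and 0.56 with the median gene set to 0. Of 20 glycolysis genes 5 were higher and 1 lower. Of 27 tissue residency genes 2 were higher and 6 lower, of 16 NK receptor genes 0 and 6, and of 32 interferon-induced genes 1 and 3, against 14.8% and 8.85% of all genes.

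The share of cells with a UMI of a gene gives each cell the same weight, whatever its RNA content. Each cell was thinned to 1400 UMIs, and the 57 parous and 130 virgin cycling cells that deep were compared with the others. A Ccr7 UMI was present in 1 of the 57 parous cycling cells (1.75%) and 11 of the 130 virgin ones (8.46%), against 19.1% and 33.6% of the other cells. Klrg1 (chr6:122270596-122282882, minus strand) was found in 3 of 57 parous cycling cells (5.26%, 1.10 to 14.6) and in 39 of 130 virgin ones (30%, 22.3 to 38.7), against 2.66% and 6.41% of the others. Averaged over all possible draws the Klrg1 shares were 9.01% and 33.1% of cycling cells, against 2.81% and 6.37% of the others. Without thinning they were 26.3% and 67.2%, against 5.52% and 13.3%. Gzmb (chr14:56258838-56262260, minus strand), a granule protease that kills target cells, was found in 29.8% (18.4 to 43.4) and 50% (41.1 to 58.9) of cycling cells, against 22.6% and 12.6% of the others. The gap between cycling and other cells was wide for Klrg1 and Gzmb in the virgin library. In the parous library the intervals of this draw held the other cells' shares for both genes, and the Klrg1 draw lay below its average. A count of 5 of 57 cells, near that Klrg1 average, has an interval of 2.91 to 19.3. It lies above the other cells' share, so the place of the parous Klrg1 interval rests on this draw.

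Gzmk, a granzyme of memory cells with little killing power, had a UMI in 38.6% of parous and in 24.6% of virgin cycling cells, against 21.2% and 14.4% of the others. Pdcd1 (PD-1), an inhibitory receptor, was found in 17.5% and 13.1%, against 10.7% and 4.59%. Cxcr6, a chemokine receptor of tissue T cells, was found in 19.3% and 22.3%, against 20.3% and 16.7%. Itgae, the integrin chain CD103 that anchors cells to epithelium, was found in 1 of 57 and 1 of 130 cycling cells, against 9.66% and 2.97% of the others. Fcer1g, a signalling adaptor of innate-like T cells, was found in 3 of 57 parous cycling cells and in 0 of 130 virgin ones, against 14.4% and 1.53%. That 0 allows up to 2.80% of cells with a UMI at 1400 UMIs, and without thinning Fcer1g had a UMI in 2.29% of virgin cycling cells. In this draw the intervals of Gzmk lay above the other cells' shares in both libraries, and that of Pdcd1 did so in the virgin library. That of Itgae lay below the other cells' share in the parous library. The other intervals of these 5 genes held the share of the other cells. The Itgae draw lay below its average and the Pdcd1 draw above it, so both gaps were smaller over all draws. Over all possible draws Itgae averaged 5.07% of parous cycling cells against 9.64% of the others, and Pdcd1 9.58% of virgin cycling cells against 4.73%. A count of 3 of 57 cells, near that Itgae average, has an interval of 1.10 to 14.6. It holds the other cells' share, so the place of the Itgae interval rests on this draw. Without thinning Itgae had a UMI in 8 of the 57 parous cycling cells against 19.0% of the others. Other tissue residency genes went both ways. Itga1 was found in 7.02% of parous and 11.5% (6.60 to 18.3) of virgin cycling cells, against 9.06% and 3.57% of the others. Over all draws it averaged 4.76% and 6.90%, against 9.51% and 3.64%. Zfp683 averaged 4.75% and 8.14%, against 3.81% and 3.31%. Cd69 was found in 19.3% and 40% of cycling cells, against 33.5% and 51.2%.

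Seen from the other side, the share of cells in cycle differed by state. In the virgin library 20.5% of the 190 cells with a Klrg1 UMI were cycling, as were 18.0% of those with Gzmb and 16.8% with Gzma. It was 15.2% with Itga1, 13.6% with Pdcd1 and 3 of 12 cells with Il2ra. In the parous library 3 of 78 cells with Klrg1 were cycling (3.85%, 0.80 to 10.8), and 2.60% (1.52 to 4.14) of those with Gzmb. It was 3.55% (2.24 to 5.33) with Gzmk and 3.22% (1.55 to 5.83) with Pdcd1. Of these parous intervals only that of Gzmk lay above the share over all kept cells. The parous Klrg1 count of 3 comes from the draw that lay below its average. Among cells with Ccr7, 0.186% of 538 parous and 1.37% of 803 virgin cells were cycling.

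**Figure D3:**
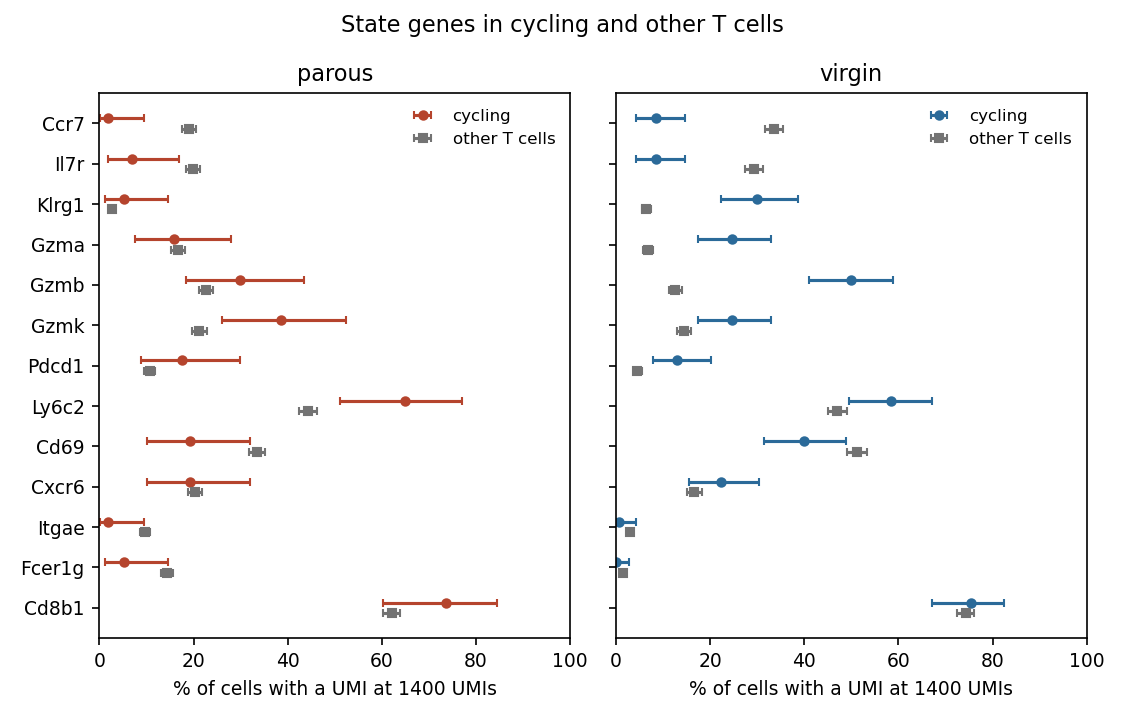
Percent of cells with a UMI of each state gene (x axis) at 1400 UMIs per cell in cycling cells and other T cells of the parous and the virgin library, with exact 95% binomial intervals. In the virgin library Klrg1, Gzma and Gzmb lie far right of the other cells, and in both libraries Ccr7 and Il7r lie left of them.

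The place of the cycling cells along the cycle was read from 2 sets of genes. In cells thinned to 3000 UMIs, UMIs of 70 replication genes were set against UMIs of 71 mitosis genes, rule genes left out. Mitosis UMIs outnumbered replication UMIs in 36 of 56 parous cells (64.3%, 50.4 to 76.6) and in 75 of 130 virgin cells (57.7%, 48.7 to 66.3). The same was true of 37.1% and 41.9% of the other T cells, so this count is not specific to division. Of the mitosis UMIs in cycling cells 44.9% and 41.8% came from 5 tubulin and stathmin genes (Tubb5, Tuba1b, Tuba1c, Tubb4b and Stmn1). Without these 5, a choice made after the data were seen, mitosis led in 20 of 56 parous cells (35.7%, 23.4 to 49.6) and in 50 of 130 virgin cells (38.5%, 30.1 to 47.4). With this shorter list it led in 17.3% of the other parous and 14.9% of the other virgin T cells. The side of a cell therefore rests on the gene list. The intervals of the libraries overlapped under either list, which does not show that the libraries were alike.

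With the shorter list, some genes that played no part in the split followed it and others did not. Ccne1, the cyclin of S phase entry, was at 48.4 CPM in parous cells on the replication side and at 26.8 CPM on the mitosis side, from 16 and 5 UMIs. In virgin cells it was at 45.1 and 19.6 CPM. Ccne2, a related cyclin, went from 36.3 to 42.8 CPM in parous and from 19.8 to 10.9 CPM in virgin cells. Hist1h1b, a rule gene made in S phase, was higher on the mitosis side, going from 342 to 439 and from 697 to 1303 CPM. Ccnb1, the main mitotic cyclin, went from 9.07 to 123 CPM in parous and from 24.0 to 133 CPM in virgin cells. Ccnb2 went from 81.6 to 476 CPM and from 102 to 412 CPM. The rule gene Ube2c, which helps to destroy mitotic cyclins, went from 78.6 to 947 and from 103 to 876 CPM. Cdkn1a was at 230 and 209 CPM on the 2 sides in parous cells and at 80.5 and 66.4 CPM in virgin cells, so its parous excess, described below, was present on both sides. Depth was alike on both sides, with median UMIs of 8467.5 and 8387.5 in parous and 19675 and 17583 in virgin cells.

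Histone RNA marked a part of the cells on either side. At 3000 UMIs, 19 of 56 parous cycling cells (33.9%, 21.8 to 47.8) and 60 of 130 virgin ones (46.2%, 37.4 to 55.1) had at least 10 UMIs of replication-linked histones, with medians of 18 and 25 UMIs among them. On the replication side these were 25% of parous and 37.7% of virgin cells, and on the mitosis side 50% and 58.0%.

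**Figure D4:**
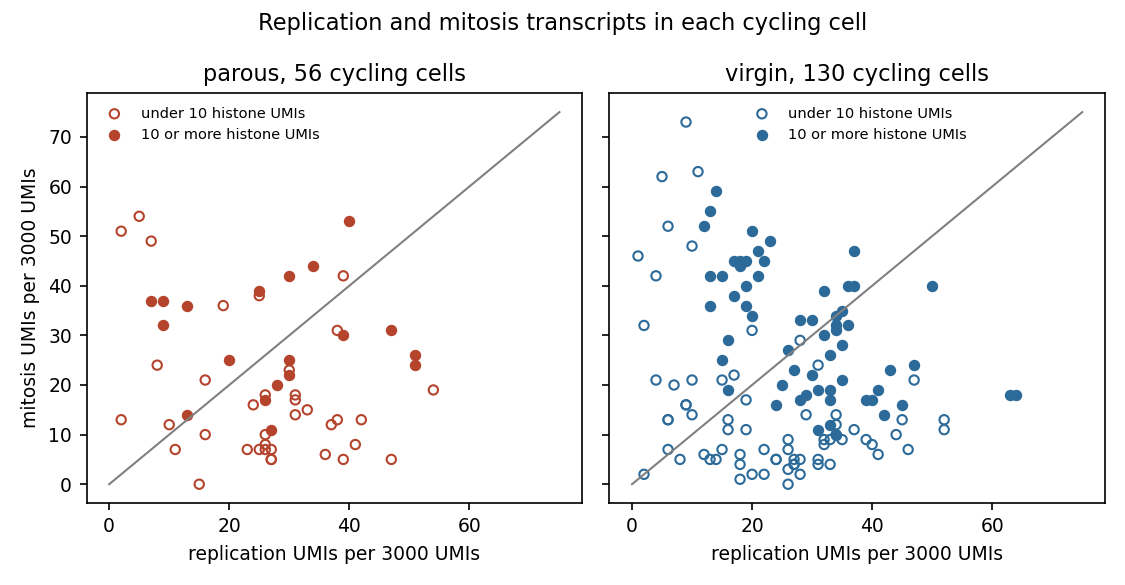
Each point is 1 cycling cell thinned to 3000 UMIs, with UMIs of 70 replication genes on the x axis and of 66 mitosis genes (tubulin and stathmin genes left out) on the y axis, filled where it held at least 10 histone UMIs. Most cells lie below the line of equal counts in both libraries, 36 of 56 parous and 77 of 130 virgin, and filled points lie on both sides of it.

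Few genes of the core division machinery differed between parous and virgin cycling cells. In the parous cells histone, circulating effector and interferon-induced genes were lower and 6 of 19 CDK inhibitor and quiescence genes were higher. Of 8763 genes with at least 20 summed UMIs, 899 (10.3%) stood 1.5-fold or more above the virgin value in parous cells and 1773 (20.2%) that far below it. Counting only those whose exact interval also lay off 1, a rule added after the data were seen, there were 392 (4.47%) and 826 (9.43%). The parous cycling cells gave 519907 UMIs in all and the virgin ones 2637763, so the parous values set the precision. The other T cells gave 886 (7.19%) and 1587 (12.9%) of 12320 genes under the first rule. The median log2 ratio over all genes was -0.11 in cycling and -0.10 in other cells.

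DNA synthesis had 0 of 31 genes higher and 0 lower, at a median of 0.05, and licensing 1 and 0 of 19, at 0.07. Condensation had 1 and 0 of 19, cytokinesis 1 and 1 of 20, and respiratory chain 0 and 1 of 54. All of these counts lie below the background shares. Cenpf stood at 113 and 116 CPM (ratio interval 0.727 to 1.30), Nusap1 at 146 and 143 and Mcm5 at 223 and 219. Of 51 spindle genes 1 was higher and 7 lower, among them Plk1, the Polo kinase of mitotic entry, at 23.1 and 84.9 CPM, or 12 and 224 UMIs (ratio 0.138 to 0.484). The 6 nucleotide supply genes that were lower, of 20, included Cad and Gart, enzymes of pyrimidine and purine synthesis, at log2 ratios of -1.61 and -1.27.

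Replication-linked histones were lower as a group. Of 37 measured genes 25 were at least 1.5-fold lower, 24 of them with an interval off 1, and 0 were higher. All 37 ratios were below 0, at a median of -0.97, and 13 of the 50 list members had too few UMIs. Among them were the linker histones, which close the nucleosome: Hist1h1d at 61.5 and 235 CPM (ratio 0.178 to 0.374), Hist1h1c at 78.9 and 267, Hist1h1e at 312 and 687 and Hist1h1a at 42.3 and 143. Hist1h2ae, a core histone gene, was at 629 and 905 CPM (0.617 to 0.781). In the other T cells 10 of 25 histone genes were lower and 0 higher, at a median of -0.55. Without cells that carried the receptor segment Trbv31, described below, the cycling cells' median was -0.55. Core histone genes are near-identical copies, so the split of counts among them is uncertain and the group's sum is the safer value, at 2577 and 4830 CPM. H2afv, a variant histone that is not tied to replication, was higher, at 1044 and 541 CPM.

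Some genes that hold back the cycle were higher in parous cycling cells. Of 19 measured CDK inhibitor and quiescence genes 6 were higher, 5 with an interval off 1, and 0 lower, where 10.3% of all genes were higher. The other 13 were less than 1.5-fold apart and 9 of the 19 had log2 ratios below 0, with a median of 0.25 over the list, or 0.13 with cells thinned to 3000 UMIs. Cdkn1a (chr17:29090976-29100727, plus strand), which encodes p21, was at 225 CPM in parous and 77.7 CPM in virgin cycling cells (ratio 2.29 to 3.65), from 117 and 205 UMIs in 29 and 56 cells. It was also higher in the other parous T cells, at 65.1 and 15.5 CPM. Foxo1, a transcription factor of quiescence and homing, was at 110 and 55.3 CPM (1.43 to 2.71), and Ccng2, a cyclin that slows division, at 65.4 and 35.6 (1.20 to 2.74). Klf2, which keeps T cells recirculating, was at 771 and 434 CPM (1.58 to 1.99), whereas in the other T cells it was at 823 and 1900. The DNA damage and p53 target list had 3 of 22 genes higher and 4 lower, at a median of -0.25. Its highest ratio was that of Gadd45a, a stress-induced growth arrest gene, at 32.7 and 5.69 CPM, from 17 and 15 UMIs.

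Among the 12 named genes with the highest ratios, Smad7, the feedback inhibitor of TGF-beta signals, was at 156 and 39.0 CPM (ratio 2.95 to 5.39). Ski, a co-repressor of Smad proteins, was at 55.8 and 15.2 CPM, Smurf2, a ubiquitin ligase that binds Smads, at 67.3 and 20.5, and Ldlrad4, a membrane protein that dampens TGF-beta signals, at 67.3 and 19.3. Smad7 stood at 153 and 111 CPM in the other T cells, a gap of 0.46 on the log2 scale against 2.0 in cycling cells. Nrarp, a Notch-induced regulator, was furthest apart at 69.2 and 10.6 CPM, from 36 and 28 UMIs (3.87 to 11.1). Isg20, an interferon-induced exonuclease that is not in the interferon list used below, was at 86.6 and 17.8 CPM. Cd7, a surface receptor of T and NK cells, was at 696 and 191, with 865 and 200 in the other cells. The remaining 5 were Arid5a, Rpain, Dgat1, Ier3 and Pde4d, with log2 ratios from 1.67 to 1.91.

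Of the 12 with the lowest ratios, Myc, the transcription factor that drives growth on activation, had 5 UMIs in parous and 176 in virgin cycling cells (9.62 and 66.7 CPM, ratio 0.046 to 0.343). Myc was also lower in the other parous T cells, at 39.7 (parous) and 108 CPM (virgin). The parous over virgin log2 ratio was -1.45 there, against -2.66 in cycling cells. In both libraries Myc was lower in cycling than in other cells, with log2 ratios of -1.91 (parous) and -0.69 (virgin). Srm, which makes spermidine, was at 15.4 and 81.1 CPM, and Pes1 and Mybbp1a, both of ribosome assembly, at 13.5 and 55.7 and at 17.3 and 66.3 CPM. Il2ra, the high-affinity IL-2 receptor chain, was not among these 12 and had 1 and 53 UMIs. Over the activation and growth list 5 of 23 genes were lower and 2 higher, near the background. Cd81, a tetraspanin, had 0 UMIs in parous and 339 UMIs in 44 virgin cycling cells, at least 22.3-fold lower at a floor of 3 counts over the group. Klra3, a Ly49 receptor, had 0 against 196 UMIs in 27 virgin cells, at least 12.9-fold lower. Rgs16, a brake on chemokine receptor signals, was at 15.4 and 118 CPM. The others of this set were Anxa1 (30.8 and 155 CPM), Gbp6 and the histones Hist2h4, Hist1h2af and Hist1h1d.

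Circulating effector genes were lower in parous cycling cells in 9 of 20 cases, 8 with an interval off 1, and higher in 1, where 20.2% of all genes were lower. The list's median was -0.48, and it was -0.18 without Trbv31 cells. Klrg1 was at 108 and 362 CPM (0.223 to 0.390), or -1.74 on the log2 scale and -1.18 without Trbv31 cells. Klre1, an NK receptor chain, was the 1 that was higher, at 108 and 49.7 CPM. Gzmb was at 514 and 872 CPM in cycling cells but at 578 and 196 CPM in the other T cells. Its ratio in cycling cells was -0.76, and -0.20 without Trbv31 cells. Gzma, another granzyme, was at 1456 and 1254 CPM in cycling cells against 1604 and 476 in the others. Gzmk was higher in parous cycling cells, at 440 and 252 CPM (1.499 to 2.04).

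Of 23 tissue residency genes measured in cycling cells 8 were higher in the parous library, where 10.3% of all genes were higher, and 5 were lower, where 20.2% were lower. The list's median was -0.07. In the other T cells 15 of 27 were higher and 2 lower, where 7.19% and 12.9% of all genes were, at a median of 0.82. Itgae (chr11:73090583-73147446, plus strand) was at 46.2 and 3.79 CPM, from 24 UMIs in 8 parous and 10 UMIs in 7 virgin cycling cells. Ccr8, a chemokine receptor of skin-homing and regulatory T cells, had 1 and 80 UMIs. The difference between cycling and other cells in this list was not tested. Of 12 NK receptor genes 6 were higher and 5 lower. The innate-like marker Fcer1g was at 73.1 and 2.27 CPM, with its 38 parous UMIs in 6 of the 57 cells, and Klra7, another Ly49 receptor of a family of close copies, had 32 parous UMIs in 4 cells, so these 2 values rest on few cells. The part of innate-like cells in the residency values was not tested.

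As a list, interferon-induced genes were lower in parous cycling cells. Isg20, which is interferon-induced but outside the list, was higher there, as given above. Of 27 measured genes 14 were lower, 9 with an interval off 1, and 0 higher, at a median of -0.72, where 20.2% of all genes were lower. Ifi209, a member of the interferon-induced p200 family, was at 42.3 and 88.3 CPM, and Bst2 (tetherin), which holds virus particles on the cell, at 94.2 and 157 CPM. Ifit1, which binds foreign RNA, had 1 and 46 UMIs, and its relative Ifit3 had 0 and 41. The other T cells had 13 of 32 genes lower and 2 higher, at -0.49. Lag3, an inhibitory receptor, was at 7.69 and 48.5 CPM in cycling cells, while of 15 inhibitory receptor genes 4 were higher and 5 lower.

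**Figure D5:**
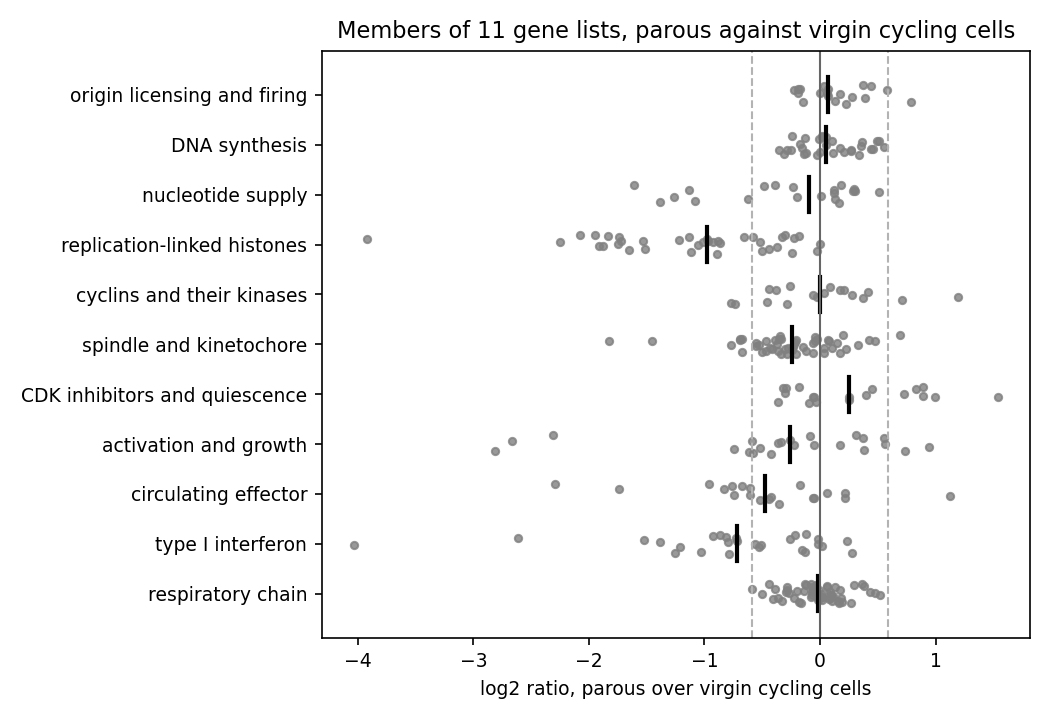
Each point is 1 gene of a list, placed by its log2 ratio of parous over virgin cycling cells (x axis), with a bar at the list's median and dashed lines at 1.5-fold. Points of DNA synthesis and licensing sit around 0, while all 37 histone genes lie below 0 and 0 interferon genes pass the upper line.

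One receptor segment took a large part of the virgin cycling cells. A Trbv gene was assigned in 50 of 57 parous and 116 of 131 virgin cycling cells. Trbv31 (chr6:41557691-41558452, minus strand) was carried by 42 of the 116 (36.2%, 27.5 to 45.6), against 137 of 2034 other virgin T cells (6.74%). In the parous library it was carried by 5 of 50 cycling cells (10.0%, 3.33 to 21.8), against 118 of 2197 others (5.37%). Of the virgin cells with Trbv31, 42 of 179 were cycling (23.5%, 17.5 to 30.4), and of the parous ones 5 of 123 (4.07%). In the virgin library Trbv12-1 followed with 14 of 116 cycling cells, and in the parous library Trbv3 led with 9 of 50, then Trbv19 with 8 and Trbv13-3 with 7. The receptor alpha segment could be assigned in 15 of the 42 virgin cycling Trbv31 cells and was Trav3-1 in 9 and Trav10d in 4, against 19 and 17 of 73 other virgin Trbv31 cells. A segment is shared by many clones, and clonotypes were not analysed here.

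The virgin cycling cells with and without Trbv31 differed in some effector RNAs. At 1400 UMIs, Klrg1 was found in 21 of 42 with Trbv31 (50%, 34.2 to 65.8) and in 14 of 74 with another segment (18.9%, 10.7 to 29.7), and Gzmb in 30 of 42 (71.4%) and 29 of 74 (39.2%). Gzmk went the other way, in 1 of 42 and 28 of 74 (37.8%), as did Pdcd1, in 0 of 42 (up to 8.41%) and 15 of 74 (20.3%). Mki67, a rule gene, was found in 15 of 42 and 29 of 74. Virgin Trbv31 cells outside the cycle held Klrg1 in 48 of 137 cells (35.0%), Gzmb in 61 and Gzmk in 12. In the parous library 117 Trbv31 cells outside the cycle held Klrg1 in 15 cells and Gzmk in 42, the reverse order. Cx3cr1 and S1pr5, also circulating effector genes, were found in 1 and 4 of the 42 virgin cycling Trbv31 cells. They were found in 23 and 25 of the 137 outside the cycle, and in 1 and 3 of the 74 cycling cells with another segment. The Cx3cr1 draw gave 1.54% of all virgin cycling cells, below its average of 6.04%. By position, Trbv31 was carried by 30 of 66 virgin cells on the replication side (45.5%, 33.1 to 58.2) and by 12 of 47 on the mitosis side (25.5%, 13.9 to 40.3).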

How the data were processed

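Transcripts of sorted CD8 T cells were counted in 2 single-cell libraries made with a 10x 5′ gene expression kit, 1 parous and 1 virgin. The authors deposited raw UMI counts by gene and barcode. Per the file headers these came from Cell Ranger 7.0.0. The submitters' processing notes name mm10 as build and list R 4.4.2 and Seurat, with no role stated. How barcodes were called as cells is not given in the sources used here. Of 4927 parous and 2526 virgin barcodes, those kept had 500 or more genes, 1000 or more UMIs, under 10% mitochondrial UMIs and a UMI of Cd3d, Cd3e or Cd3g.

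The members and all gene lists were chosen with earlier results of these data known. The values that chose the cells are the 10 rule genes and, through the filter, Cd3d, Cd3e and Cd3g. UMIs were summed over cells and divided by the total (CPM), and log2 ratios had 0.5 added to each sum. Intervals of a ratio are conditional binomial and those of a share Clopper-Pearson, both at 95%. Barcodes were thinned by drawing UMIs without replacement, once per cell, or 20 times for the cycling share. A cell took a Trbv gene that had 2 or more UMIs and 66.7% or more of its Trbv UMIs. Named genes were the 12 highest and the 12 lowest ratios among genes with at least 50 CPM in 1 library, 30 summed UMIs and UMIs in 10 cells, with no cell holding over 25% of the UMIs, without receptor, ribosomal, mitochondrial and unnamed genes, and up to 4 members of each list. Genes of lists and markers beyond these were named after their values were seen. Scrublet (scanpy 1.11.5, expected rate 0.06) marked 3 parous and 12 virgin cells, 0 of them cycling. At under 0.5% of each library it was taken not to have worked, and no cell was removed. Of 637 list entries in 32 lists, 5 did not match a symbol. Gene positions are from GENCODE mouse release M21 on GRCm38, the assembly that mm10 names, and promoters from RefSeq on GRCm38.p6. The computation was tested on simulated counts. Scripts ran in Python 3.11.15 with pandas 2.3.3, scipy 1.17.1 and numpy 2.4.6. Alternatives covered depth, scaling, weighting of cells, cell filter, rule, doublets, low counts and Trbv31 cells.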

Additional observations from a re-analysis of the deposited data

Results flagged for a closer look

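For 6 of 204 named genes the cycling cells lay at least 1.5-fold above the other T cells in 1 library and that far below them in the other, with both counting intervals off 1. With 1 library per group the difference was not tested. Over all 10817 genes measured, 35 (0.324%) met the same rule and 383 met it by fold alone, as did 11 of the named genes, some of which were named for their parous over virgin ratio. As log2 ratios of cycling over other cells, Lag3, an inhibitory receptor, was at -1.58 (parous) and 1.24 (virgin). Cd244a, a receptor of the SLAM family, was at -1.46 and 1.79. Tnfrsf9 (4-1BB), a costimulatory receptor of activated T cells, was at -0.75 and 1.29, and Srm, the spermidine synthase, at -1.25 and 0.65. Itga1, the collagen-binding integrin CD49a, was at -1.19 and 0.77. Klra3, a Ly49 receptor, was at -3.68 and 1.97, and its parous value rests on 0 UMIs in cycling cells.

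Outside the cell filter, 4 parous barcodes and 1 virgin barcode carried at least 4 of the 10 rule genes. They entered no comparison.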

How the results depend on the processing

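With 1 library per group, no test gave a threshold to pass. Each value is judged by its move against its counting interval or, for counts of genes, by 1.5 times. List medians have no counting interval and are judged by a fixed shift on the log2 scale. No paired analysis was possible because each group has 1 library and no result comes from a test. Of 76 values of the main results under the alternatives 58 kept within those limits and 18 moved. The share of cycling cells was 0.975% parous and 2.58% virgin at 1400 UMIs, and 1.44% and 4.29% with at least 6 rule genes. At 3000 UMIs, a depth added after the data were seen, it was 1.66% and 3.93%, and the virgin share was 2.36 times the parous one, above the 1.78 to 2.32 times of 20 further draws. Under the other 7 alternatives it was 2.50 to 2.98 times. Between parous and virgin cycling cells, 487 genes were higher and 906 lower with all cells thinned to 3000 UMIs, 469 and 1162 at 50 summed UMIs or more, and 392 and 826 when the interval had to lie off 1. Between cycling and other cells, 1479 were lower with median-of-ratios scaling. Without the tubulin and stathmin genes, mitosis led in 35.7% and 38.5% of cells. Without thinning, Klrg1 was found in 26.3% and 67.2% and Gzmb in 54.4% and 78.6% of cycling cells.

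Of 376 list medians under the alternatives 339 stayed within that fixed shift, which is not a counting interval, and 37 moved. The parous over virgin median of the NK receptors was 0.44 and became -0.79 at 3000 UMIs, that of the naive genes went from -0.30 to 0.05, and that of tissue residency was 0.29 without Trbv31 cells. Of 3916 values of named genes 9 changed sign. At 3000 UMIs, Anxa1 in parous cycling over other cells was -1.04, Gbp6 0.071, and between parous and virgin cycling cells E2f3 was -0.13 and Tigit -0.024. Without Trbv31 cells, P2rx7 was 0.14, S1pr5 0.43 and Zfp683 0.14. Cd68 in parous cycling over other cells was -0.24 without cells holding 2 Trbv genes, and Tyrobp was -0.014 with at least 6 rule genes. The cause was not tested. The 57 parous cells and their 519907 UMIs limit every parous value.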

Other observations

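Jun, a subunit of the transcription factor AP-1, was at 137 CPM in parous and 59.9 CPM in virgin cycling cells, while Dusp1, a phosphatase induced with it, was at 421 and 753 and Fos, its partner in AP-1, at 550 and 882. In the other T cells Jun had the opposite order, at 282 and 482 CPM. Of 24 immediate early and heat shock genes 4 were higher and 3 lower in the parous cycling cells, where 10.3% and 20.2% of all genes were, so the list's counts are no result about the group. Without cells holding 2 Trbv genes the log2 ratio of Jun in cycling cells was 2.39, against 1.19 with them.

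Among 21 DNA damage and p53 target genes 9 were higher and 2 lower in cycling than in other cells of both libraries, where 14.8% and 8.85% of all genes were. The list's median log2 ratios were 0.49 (parous) and 0.74 (virgin), and the parous one was 0.10 with cells thinned to 3000 UMIs. Mdm2, the p53 ligase that p53 itself induces, was at 61.5 and 68.6 CPM in cycling cells and at 45.7 and 57.3 in the others, under 1.5-fold apart in either library, while Cdkn1a, also a p53 target, was above 3-fold apart in both. Ctla4, an inhibitory receptor, was at 82.7 and 219 CPM in parous and virgin cycling cells, and at 122 and 186 in the others.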
